A study of Mus musculus with 9 samples.

Results

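The chymotrypsin, elastase and pancreatic carboxypeptidase genes described here are Ctrb1, Ctrl, Ctrc, Cela1, Cela2a, Cela3b, Cela3a, Cpa1 and Cpb1. These 9 genes were taken by symbol from a table of 17132 genes, and all 9 were present and passed the filter on low counts that left 12828 genes for testing. Whole pancreas messenger RNA was measured in 3 C57BL/6 mice per group. QYD mice were given caerulein, a peptide that mimics cholecystokinin and drives acinar secretion to excess, in 7 hourly intraperitoneal doses, the last of them together with lipopolysaccharide (LPS), a bacterial endotoxin. They were also given Qingyi Decoction, which is a mixture of medicinal herbs, at 0 and 8 h. Model mice received the same caerulein and LPS injections and saline in place of the decoction. Control mice received 7 injections too, of saline alone, and the pancreas of every mouse was taken at 24 h. Below, injected mice, libraries and groups are those of QYD and Model, which were given caerulein and LPS. The genotype was wild type in each group, and neither age nor sex is stated in the labels. The mice of a group are described only as separate animals, and caerulein and LPS were never given apart. The p-values set a group difference against the spread among mice within groups, estimated over all 9 libraries, with 3 mice per group.

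Acinar cells of the exocrine pancreas make digestive proteases as inactive zymogens, store them in granules and release them into the duct. In the intestine trypsin cuts the zymogens into active enzymes. Chymotrypsins cut proteins beside aromatic and other large hydrophobic residues, elastases beside small ones, and carboxypeptidases then remove single residues from the carboxyl end. In acute pancreatitis zymogens become active within the gland, and messenger RNAs of these enzymes make up much of the RNA of a healthy pancreas.

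Libraries held 19112923 to 20212744 estimated counts. Their composition differed: the 50 most abundant genes took 65.6% to 72.0% of counts in QYD, 64.8% to 70.2% in Model and 90.8% to 91.4% in Control. For this reason fold changes were computed on 3 scales. The TMM scale sets the typical gene near no change, with factors that averaged 1.56 in QYD, 1.70 in Model and 0.381 in Control. The library total scale uses counts as a share of all counts, and on it the median gene lay 2.15 higher than on the TMM scale in Model versus Control and 2.03 higher in QYD versus Control (log2). The third scale divides each library by the geometric mean of the 9 protease counts, so that a change is one relative to the average of these genes. Fold changes come from quasi-likelihood tests in edgeR, with p-values adjusted by Benjamini-Hochberg over all tested genes and a threshold of 0.05, and levels of different genes are compared as TPM, which is scaled by transcript length.

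The tissue label was checked against markers, with calls from Model versus Control. Over all tested genes 21.3% fell and 21.3% rose on the TMM scale, and 0.943% fell and 94% rose on library totals. In TPM 93.9% of all tested genes were higher in every Model library than in every Control library. Acinar markers summed to 166015 to 184968 TPM in QYD, 153099 to 175188 in Model and 344841 to 386406 in Control, and 8 of 8 fell in Model versus Control on the TMM scale (7 of 8 on library totals). Of 8 tested neutrophil markers of 10 listed, 6 rose and none fell in Model versus Control on the TMM scale (8 rose on library totals). The 10 listed summed to 485 to 803 TPM in QYD, 377 to 768 in Model and 7.60 to 32.1 in Control. The highest Control value was that of Control 45. Macrophage markers summed to 240 to 351 TPM in QYD, 218 to 420 in Model and 40.3 to 68.6 in Control. On the TMM scale 4 of 9 macrophage markers rose and 1 fell (median -0.13), while 9 rose on library totals. Duct markers summed to 470 to 740 TPM in QYD, 592 to 1254 in Model and 56.95 to 83.3 in Control. Of 8 duct markers, 4 rose and 1 fell on the TMM scale (median 0.56), while 7 rose on library totals. Islet markers summed to 509 to 705 TPM in QYD, 639 to 1630 in Model and 774 to 1246 in Control, and 7 of 8 fell in Model versus Control on the TMM scale (median -1.62), against 0 that fell and 2 that rose on library totals. Red blood cell markers summed to 56.3 to 183 TPM in QYD, 97.8 to 145 in Model and 63.1 to 170.2 in Control, and 5 of 5 tested fell on the TMM scale (median -1.94), against 0 called on library totals. B cell markers summed to 0.93 to 22.2 TPM in QYD, 0.55 to 14.9 in Model and 0.84 to 3.53 in Control. They were uneven within groups, with the higher sums in Model 57, QYD 65 and QYD 66, and none was called on the TMM scale or library totals. The remaining marker lists are not described here. No listed marker of the types named was at 0 in every library, and the part these cell types play in the protease values was not tested. In whole tissue, fewer acinar cells and less enzyme RNA per acinar cell cannot be told apart.

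The 9 protease genes together held 24.5% ± 0.835 of summed TPM in QYD, 27.8% ± 1.16 in Model and 31.3% ± 3.12 in Control (SD, n = 3 each). Ctrb1 and the others contributed in opposite ways. Ctrb1 alone held 14.5% ± 0.758 in QYD, 16.7% ± 1.14 in Model and 10.7% ± 0.992 in Control. The other 8 genes held 10.0% ± 0.119 in QYD, 11.0% ± 0.526 in Model and 20.6% ± 2.22 in Control. Among the 9 genes, Ctrb1 thus took 59.1% ± 1.14 of the TPM in QYD, 60.2% ± 2.18 in Model and 34.3% ± 1.21 in Control.

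**Figure D1:**
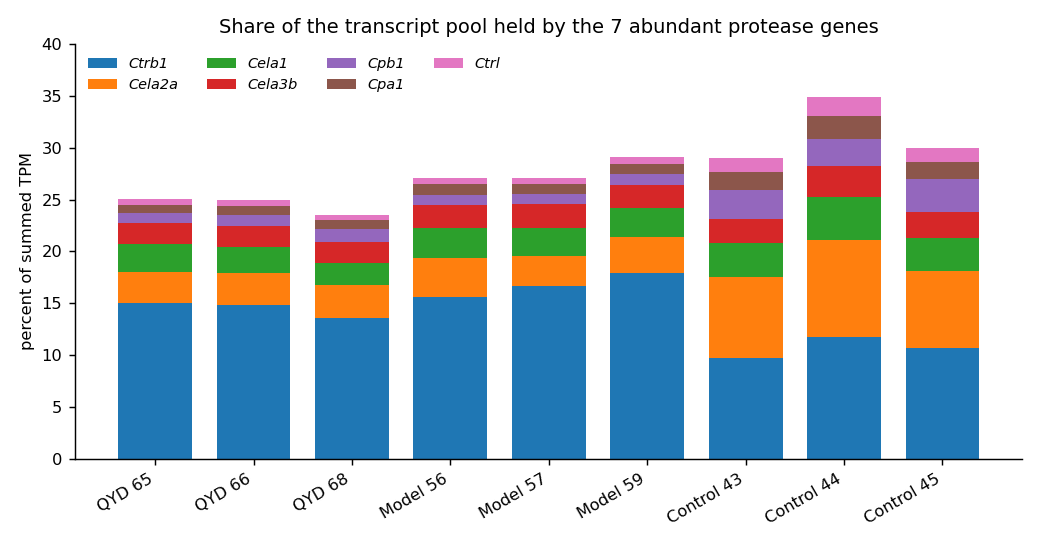
Stacked bars give the percent of summed TPM held by the 7 abundant protease genes in each library, on an axis from 0. The Ctrb1 segment spans 13.6% to 15.0% in QYD, 15.6% to 17.9% in Model and 9.76% to 11.7% in Control, while the segments above it are together shorter in all 6 injected libraries.

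Ctrb1, gene ID 66473, encodes the main mouse chymotrypsinogen and lies at chr8:111686510-111691010 on the minus strand (GRCm38.p6). It measured 150451, 147925 and 136234 TPM in QYD, 156316, 166771 and 179074 TPM in Model, and 97627, 117470 and 107292 TPM in Control. All QYD values lay below all Model values, and both groups lay above every Control library. On library totals Ctrb1 rose by a log2 fold change of 0.58 ± 0.11 in Model versus Control (SE, adjusted p = 0.000215) and by 0.40 ± 0.11 in QYD versus Control (adjusted p = 0.00408), whereas on the TMM scale it fell by 1.55 ± 0.20 (adjusted p = 0.000175) and by 1.62 ± 0.20 (adjusted p = 0.000165). The direction for Ctrb1 therefore depends on the scale. Relative to the average of the 9 genes it rose, by 1.42 ± 0.12 in Model versus Control (adjusted p = 3.1e-09) and by 1.37 ± 0.12 in QYD versus Control (adjusted p = 4.6e-09).

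Ctrl, gene ID 109660, encodes a chymotrypsin-like protease and lies at chr8:105931994-105933862 on the minus strand. It measured 5569, 5762 and 5054 TPM in QYD, 5933, 6644 and 7018 TPM in Model, and 14255, 18114 and 13851 TPM in Control. Every injected library lay below every Control library, and the QYD values lay below the Model values. Its log2 fold change in Model versus Control was -3.43 ± 0.21 on the TMM scale (adjusted p = 2.3e-06) and -1.30 ± 0.15 on library totals (adjusted p = 1.3e-06).

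Ctrc, gene ID 76701, is the mouse counterpart of human chymotrypsin C, which degrades trypsinogen. It lies at chr4:141838239-141846287 on the minus strand, and the RefSeq annotation of this build classes it as a transcribed pseudogene. Ctrc measured 17.2, 15.8 and 14.8 TPM in QYD, 17.4, 20.7 and 20.8 TPM in Model, and 46.8, 53.3 and 47.7 TPM in Control. The groups did not overlap, and Ctrl exceeded Ctrc 342-fold in QYD, 333-fold in Model and 313-fold in Control in mean TPM. On the TMM scale the log2 fold change of Ctrc was -3.52 ± 0.16 in Model versus Control (adjusted p = 4.9e-07) and -3.68 ± 0.16 in QYD versus Control (adjusted p = 3.9e-07).

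**Figure D2:**
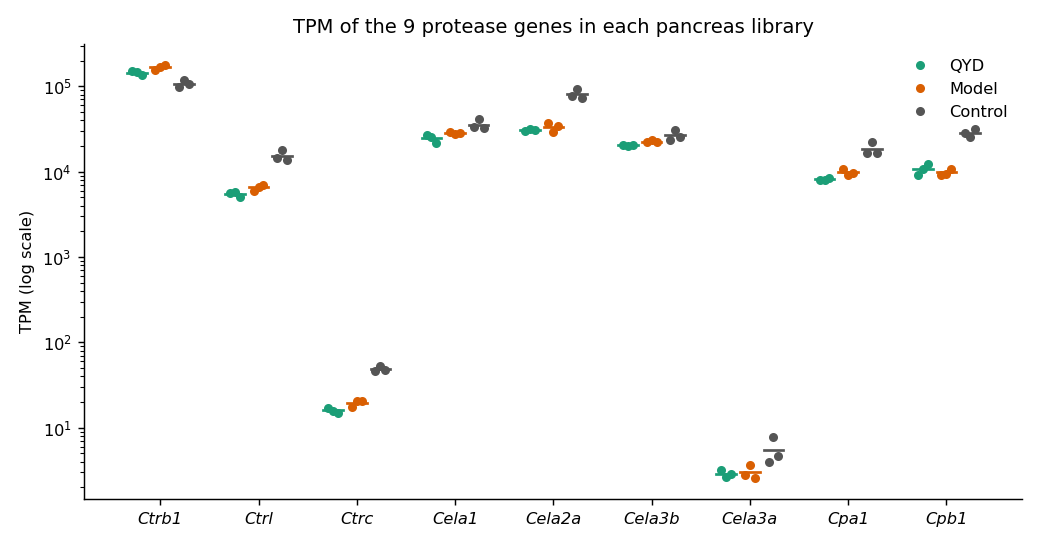
Points give TPM on a log axis for each of the 9 protease genes in each library, with a line at the mean of each group of 3 mice. Ctrb1 is the gene whose QYD and Model points lie above its Control points, and Ctrc and Cela3a lie far below the other 7 genes.

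Cela2a, gene ID 13706, encodes a pancreatic elastase and lies at chr4:141814954-141826005 on the minus strand. It measured 29594, 31509 and 30960 TPM in QYD, 37332, 28899 and 34483 TPM in Model, and 77269, 93082 and 73429 TPM in Control. QYD and Model overlapped, and both lay below Control. The log2 fold change in Model versus Control was -3.48 ± 0.23 on the TMM scale (adjusted p = 3.2e-06) and -1.34 ± 0.14 on library totals (adjusted p = 4.7e-07). Cela2a was second to Ctrb1 in each group, but the distance differed: Ctrb1 had 4.72 times the mean TPM of Cela2a in QYD, 4.99 times in Model and 1.32 times in Control.

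Cela1, gene ID 109901, at chr15:100674422-100687920 on the minus strand, and Cela3b, gene ID 67868, at chr4:137421008-137430520 on the minus strand, encode further pancreatic elastases. Cela1 measured 26972, 25210 and 21795 TPM in QYD, 29319, 27265 and 28057 TPM in Model, and 32927, 41796 and 32098 TPM in Control. Cela3b measured 20455, 20080 and 20513 TPM in QYD, 22055, 23170 and 22151 TPM in Model, and 23668, 30481 and 25479 TPM in Control. For both genes the 3 groups did not overlap, with QYD lowest and Control highest, and the gap between Model and Control was narrow. In Model versus Control the log2 fold changes on library totals were -0.40 ± 0.13 for Cela1 (adjusted p = 0.0102) and -0.30 ± 0.13 for Cela3b (adjusted p = 0.0339), against -2.54 ± 0.19 and -2.44 ± 0.19 on the TMM scale. In Model versus Control edgeR called 12185 of 12828 genes on library totals and 12593 on the protease average scale. On these 2 scales the adjustment therefore changed p-values little, as for Cela3b on library totals (unadjusted p = 0.032 in edgeR). The call for Cela3b was lost in limma on log2(TPM + 1), with a log2 difference of -0.23.

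Cela3a, gene ID 242711, lies beside Cela3b at chr4:137401554-137409791 on the minus strand. It measured 3.22, 2.64 and 2.86 TPM in QYD, 2.78, 3.64 and 2.56 TPM in Model, and 4.02, 7.79 and 4.72 TPM in Control. Its injected libraries lay below all Control libraries and overlapped with each other, and it fell by 3.08 ± 0.26 in Model versus Control on the TMM scale (adjusted p = 1.2e-05). Cela3b exceeded it 6353- to 7606-fold in QYD, 6365- to 8653-fold in Model and 3913- to 5888-fold in Control. The transcripts of the pair were identical at 869 of 968 aligned positions (89.8%), and 65.8% of the 50-base stretches of Cela3a and 66.8% of those of Cela3b occurred in no transcript of another gene. The values of Cela3a are therefore uncertain, since the division of shared reads between them is an estimate. Of Cela2a's stretches 74.4% were unique, the rest being shared with transcripts annotated to Ctrc other than the Ctrc transcript examined. The stretches of that Ctrc transcript and of the other genes were unique at 100%. Whether this sharing affected the low values of Ctrc was not tested.

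Cpa1, gene ID 109697, encodes carboxypeptidase A1, which removes aromatic and aliphatic residues, and lies at chr6:30639218-30645361 on the plus strand. It measured 7925, 8052 and 8310 TPM in QYD, 10737, 9032 and 9536 TPM in Model, and 16623, 22271 and 16687 TPM in Control. The groups did not overlap, with QYD lowest. The log2 fold change in Model versus Control was -3.13 ± 0.22 on the TMM scale (adjusted p = 3.9e-06) and -0.99 ± 0.14 on library totals (adjusted p = 1.4e-05).

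Cpb1, gene ID 76703, encodes carboxypeptidase B1, which removes the basic residues lysine and arginine, and lies at chr3:20249479-20275733 on the minus strand. It measured 9189, 10758 and 12425 TPM in QYD, 9203, 9473 and 10873 TPM in Model, and 28023, 25420 and 31288 TPM in Control. QYD and Model overlapped, and both lay below Control. In Model versus Control it had the lowest fold change of the 9 genes on the TMM scale, -3.71 ± 0.27 (adjusted p = 4.9e-06), and on library totals, -1.58 ± 0.15 (adjusted p = 2.9e-07).

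In mean TPM the order in QYD was Ctrb1, Cela2a, Cela1, Cela3b, Cpb1, Cpa1, Ctrl, Ctrc and Cela3a, and no neighbours overlapped. The order in Model was the same, but the ranges of Cela2a and Cela1, and those of Cpb1 and Cpa1, overlapped. In Control Cpb1 stood above Cela3b, with overlapping ranges, and Cpa1 and Ctrl overlapped as well. Control 44 had the highest Control TPM for 8 of the 9 genes, and Control 45 for Cpb1. Without Control 44 the 9 genes held 29.5% of summed TPM in Control.

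The promoters of the gene that kept the largest share, Ctrb1, of the elastase next to it in level, Cela2a, and of the near-identical pair Cela3b and Cela3a are printed here, so that the pair can be compared base by base. Each line gives the 150 bases before the annotated start, 5′ to 3′ on the minus strand, from RefSeq on GRCm38.p6. They lie at chr8:111691011-111691160 for Ctrb1, chr4:141826006-141826155 for Cela2a, chr4:137430521-137430670 for Cela3b and chr4:137409792-137409941 for Cela3a. Capitals mark matches on either strand to any of 5 motifs. CACCTG is an E-box of the type bound by PTF1A complexes. TTTCCCA is the TC box found beside it in acinar genes. GATAAG is bound by GATA factors. AAGGTCA is bound by orphan nuclear receptors. TATAAA is the core promoter motif.
Ctrb1: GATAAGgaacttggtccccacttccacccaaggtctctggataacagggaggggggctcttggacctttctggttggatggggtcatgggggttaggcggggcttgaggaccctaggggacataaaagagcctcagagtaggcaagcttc
Cela2a: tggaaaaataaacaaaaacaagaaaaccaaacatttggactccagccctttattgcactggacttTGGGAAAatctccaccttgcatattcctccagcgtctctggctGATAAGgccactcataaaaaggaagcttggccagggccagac
Cela3b: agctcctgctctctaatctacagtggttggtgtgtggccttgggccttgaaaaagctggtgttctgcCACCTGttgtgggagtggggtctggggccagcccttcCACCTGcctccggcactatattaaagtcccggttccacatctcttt
Cela3a: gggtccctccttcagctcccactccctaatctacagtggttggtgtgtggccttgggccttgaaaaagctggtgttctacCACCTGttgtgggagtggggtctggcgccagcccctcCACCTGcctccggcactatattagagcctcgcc

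The promoters of Cela3b and Cela3a were aligned over 250 bases, beyond the 150 printed, with end gaps not counted. They were identical at 219 of 240 aligned bases (91.2%). The estimated levels of the 2 genes differed at least 3913-fold in each library, with the values of Cela3a uncertain as described above. Over the 250 bases before the start, CACCTG occurred in 6 of the 8 promoters found in the RefSeq table and in 17.2% of all 32851 promoters. Ctrc had no entry in that table. GATAAG occurred in 5 of 8 and in 6.55% of all, TTTCCCA in 4 of 8 and in 6.82% of all, AAGGTCA in 1 of 8 (Cela1) and in 4.08% of all, and TATAAA in 1 of 8 (Cela1) and in 12.4% of all. Ctrb1 held GATAAG and TTTCCCA but no CACCTG in this window. Only exact matches were counted, so near matches to TATAAA, such as cataaa in the printed Ctrb1 and Cela2a promoters, were left out. Motif matches are a description of these letters, the motifs were chosen after the sequences were seen, and overlaps between motifs were not removed.

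The first comparison, Model versus Control, addresses the response to caerulein with LPS. On the TMM scale all 9 genes fell, where 21.3% of all tested genes fell and 21.3% rose. Their fold changes ran from -3.71 for Cpb1 to -1.55 for Ctrb1 with a median of -3.13, against a median of 0.04 over all genes. On library totals 8 fell and Ctrb1 rose, where 0.943% of all genes fell and 94% rose. In TPM 8 of the 9 genes were lower in every Model library than in every Control library and Ctrb1 was higher, where 0.912% of all genes were lower in that way and 93.9% were higher. On each of these scales the protease genes other than Ctrb1 were lower in Model. Without Control 45, the Control library with the highest sum of neutrophil markers, all 9 genes still passed on the TMM scale.

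QYD versus Control used the same 3 Control libraries, so its values are not independent of those of Model versus Control. On the TMM scale all 9 genes fell, where 20.3% of all genes fell and 20.5% rose, with a median of -3.23 for the 9 genes and 0.06 for all genes. The fold changes were -3.68 for Ctrc, -3.55 for Ctrl, -3.45 for Cela2a, -3.40 for Cpb1, -3.23 for Cpa1, -2.98 for Cela3a, -2.59 for Cela1, -2.43 for Cela3b and -1.62 for Ctrb1. On library totals 8 fell and Ctrb1 rose, where 0.99% of genes fell and 93.8% rose. In TPM 8 genes were lower in every QYD library than in every Control library and Ctrb1 was higher, where 0.928% of genes were lower in that way and 92.4% were higher.

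**Figure D3:**
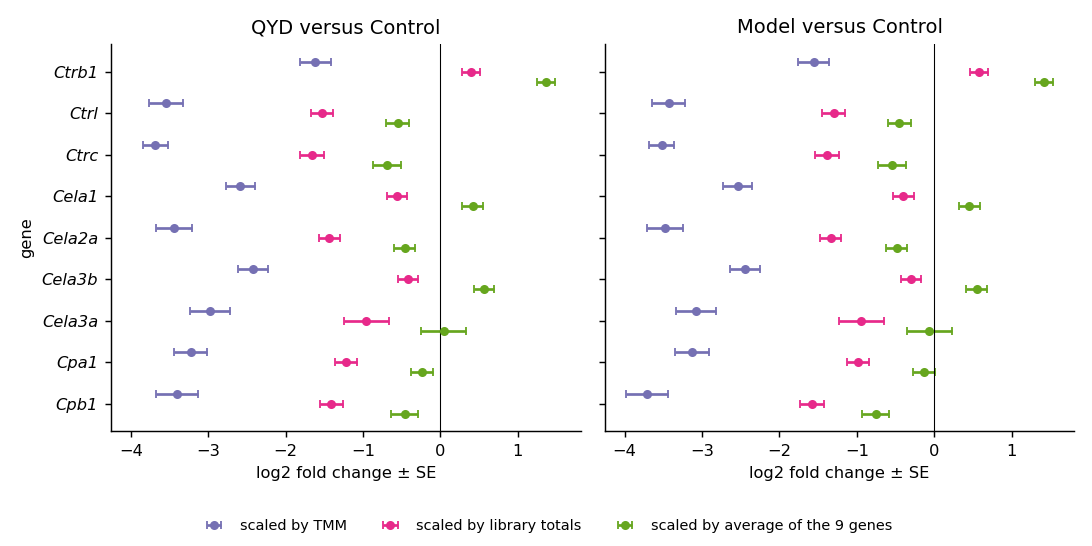
Log2 fold changes with SE for the 9 protease genes in QYD versus Control and Model versus Control, each from edgeR on 3 scales. Ctrb1 lies below 0 on the TMM scale and above 0 on the other 2 scales, while the distances between genes hardly differ from scale to scale.

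The ratio of 1 protease gene to another within a library does not depend on the scale. In Model versus Control, 7 of the 9 genes moved off the average of the 9, 3 upward and 4 downward; because the average itself fell against other RNA, 97.8% of all genes were higher and 0.359% lower on this scale. Above the average were Ctrb1, Cela3b at 0.55 ± 0.13 (adjusted p = 0.000699) and Cela1 at 0.45 ± 0.13 (adjusted p = 0.00342). Below it were Cpb1 at -0.76 ± 0.17 (adjusted p = 0.000444), Ctrc at -0.55 ± 0.18 (adjusted p = 0.00899), Cela2a at -0.49 ± 0.14 (adjusted p = 0.00263) and Ctrl at -0.45 ± 0.15 (adjusted p = 0.00781). Cpa1, at -0.13 with a 95% interval of -0.43 to 0.17, and Cela3a, at -0.07 with an interval of -0.68 to 0.55, did not pass. The elastases were thus on both sides of the average, with Cela1 and Cela3b above it and Cela2a below it. Since 1 gene so far from the rest shifts the average, Ctrb1 was also left out of it, an alternative chosen after seeing the data: Ctrc then lay at -0.37 and Ctrl at -0.27, and neither passed. With libraries scaled by the sum of the 9 counts, which Ctrb1 dominates, Cela1 lay at -0.06, Cela3b at 0.03 without passing and Cpa1 at -0.65 with passing.

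In QYD versus Control, 7 genes were off the average, where 98.2% of all genes were higher and 0.312% lower. Ctrb1, Cela3b at 0.56 ± 0.13 (adjusted p = 0.00058) and Cela1 at 0.41 ± 0.13 (adjusted p = 0.00642) were above it. Ctrc at -0.69 ± 0.19 (adjusted p = 0.0018), Ctrl at -0.55 ± 0.15 (adjusted p = 0.00177), Cela2a at -0.46 ± 0.14 (adjusted p = 0.00376) and Cpb1 at -0.46 ± 0.17 (adjusted p = 0.0158) were below it. The call for Cpb1 was lost without Control 43 (-0.41), without Control 45 (-0.35), without QYD 65 (-0.35) and with Ctrb1 left out of the average (-0.29). Cpa1 lay at -0.24 with an interval of -0.54 to 0.05 and Cela3a at 0.04 with an interval of -0.57 to 0.66, and neither passed. With Ctrc and Cela3a left out of the average, an alternative chosen after seeing the data, Cpa1 passed at -0.33 (adjusted p = 0.0286). Scaled by the sum of the 9 counts, Cpa1 passed at -0.74 (adjusted p = 7.5e-05), while Cela3b at 0.063 (adjusted p = 0.637) and Cela1 at -0.083 (adjusted p = 0.529) did not.

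The ratios of Ctrb1 to single genes show the same measurements in TPM. Ctrb1 over Cela2a was 4.73 ± 0.343 in QYD, 5.05 ± 0.801 in Model and 1.33 ± 0.115 in Control (SD, n = 3 each). Ctrb1 over Cpb1 was 13.7 ± 2.71 in QYD, 17.0 ± 0.568 in Model and 3.84 ± 0.673 in Control. Ctrb1 over Ctrl, the other abundant chymotrypsin gene, was 26.5 ± 0.760 in QYD, 25.7 ± 0.634 in Model and 7.03 ± 0.649 in Control. For each of these ratios the injected groups lay apart from Control in every library. Ctrb1 over Cpa1 was 17.9 ± 1.35 in QYD, 17.3 ± 2.35 in Model and 5.86 ± 0.578 in Control. Ctrb1 over Cela3b was 7.12 ± 0.415 in QYD, 7.46 ± 0.546 in Model and 4.06 ± 0.186 in Control, and Ctrb1 over Cela1 was 5.90 ± 0.337 in QYD, 5.94 ± 0.546 in Model and 3.04 ± 0.274 in Control. These last ratios, to Cela3b and Cela1, had the smallest distance between the injected groups and Control. QYD and Model overlapped in both, and neither overlapped Control.

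**Figure D4:**
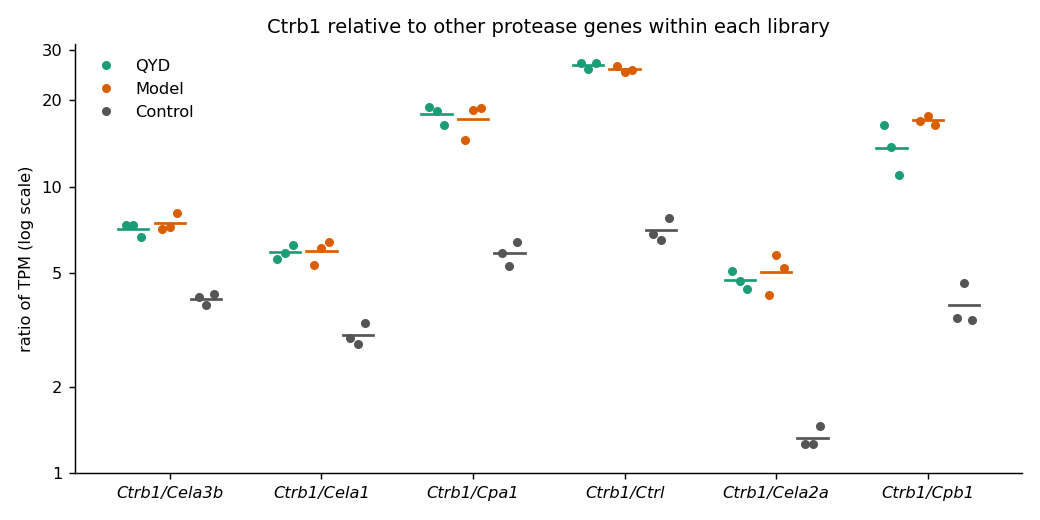
Ratio of Ctrb1 TPM to the TPM of 6 other protease genes within each library, on a log axis, with a line at the group mean. The QYD and Model points lie above the Control points for each of the 6 genes.

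QYD versus Model asks what the decoction changed in injected mice. None of the 9 genes passed on the TMM scale, where 0% of genes passed, and none of the 9 had an unadjusted p under 0.05. Across all genes edgeR called 0 of 12828, with a smallest adjusted p of 0.826 and 750 genes at an unadjusted p under 0.05. DESeq2 called 0, with 714 genes at an unadjusted p under 0.05, and limma called 1 gene, none of the 9, whether on voom weights or on log2 TPM. The 9 log2 fold changes ran from -0.16 to 0.31 with a median of -0.05, against 0.01 for all genes, and the smallest adjusted p among them was 0.859.

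The intervals show what these libraries can resolve. Cpb1 had the highest value, 0.31 with a 95% interval of -0.23 to 0.85, and Ctrc the lowest, -0.16 with an interval of -0.50 to 0.18. For Ctrb1 the interval was -0.50 to 0.36 around -0.07. For Cela2a it was -0.43 to 0.49 around 0.03, which is a range of 0.742 to 1.41 as a fold change. Simulated counts for this comparison had 200 changed genes, and 12731 genes were tested. A call was given for 29.9% of the changes of 1.5-fold, for 85.1% of those of 2-fold and for 100% of those of 4-fold. How often such changes would be called in the 9 protease genes themselves was not tested. In TPM, Ctrb1, Ctrl, Ctrc, Cela1, Cela3b and Cpa1 were lower in every QYD library than in every Model library, which makes 6 of the 9 genes, where 6.78% of all genes were lower in that way. None of the 9 was higher in that way, where 1.41% of genes were. On library totals the median of the 9 genes was -0.17 in QYD versus Model, against -0.11 over all genes, and none passed. Relative to their own average none passed either, with Cpb1 at 0.29 (interval -0.07 to 0.66) and Ctrc at -0.14 (interval -0.54 to 0.25) at the ends.

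**Figure D5:**
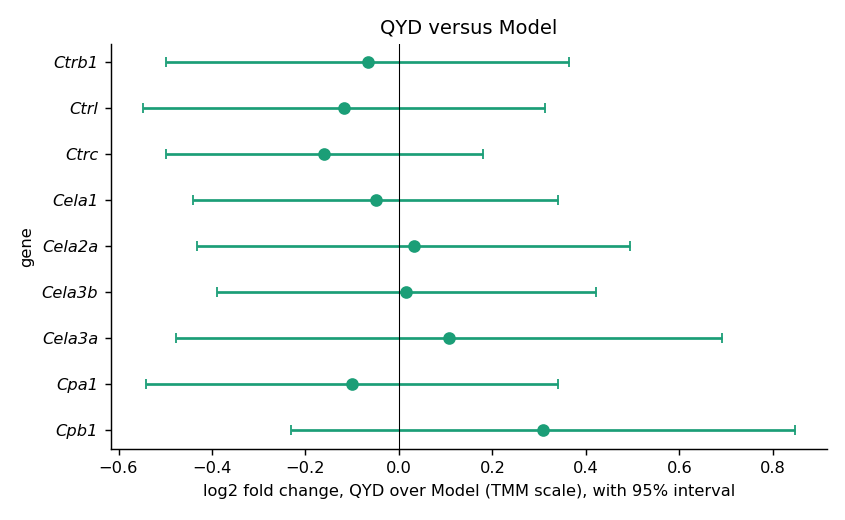
Log2 fold change of QYD over Model on the TMM scale for each protease gene, with a 95% interval computed from the edgeR F statistic. Every interval includes 0, and Cpb1 has the highest estimate at 0.31.

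Other genes of the same secretory programme were described in Model versus Control, on the TMM scale unless stated. Over all tested genes, 21.3% fell and 21.3% rose on the TMM scale, with a median of 0.04. On library totals 0.943% of all genes fell and 94% rose, with a median of 2.19. Of 12 trypsinogens and other pancreatic proteases, 7 fell and 1810009J06Rik rose by 2.62 ± 0.63 (adjusted p = 0.00631), with a list median of -2.18; on library totals 4 fell and 5 rose, with a median of -0.04. The trypsinogen gene 2210010C04Rik fell by 3.37. Try10 fell by 2.45, a call that was lost on library totals, and Klk1, tissue kallikrein, fell by 2.08 but lay at 0.06 on library totals. All 14 lipases, amylases and nucleases fell, with a median of -3.25, and 12 of them fell on library totals too, with a median of -1.11. Clps, which encodes colipase, had -4.65, Pnlip, pancreatic lipase, -3.60, Cel, carboxyl ester lipase, -3.25, and Pnliprp2 -2.82. The near-identical amylase and trypsinogen copies share reads, and their values are uncertain. Amy2a2, Amy2a3 and Amy2a4 had identical values (-3.26 each), so the same measurement enters the counts and the median for all of them.

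Of 9 tested zymogen activators and inhibitors, 5 rose and 2 fell, where 21.3% of all genes rose and 21.3% fell, with a median of 0.82. On library totals 8 rose and 1 fell, where 94% of all genes rose and 0.943% fell. Ctsb and Ctsl, lysosomal cathepsins that can activate or degrade trypsinogen, rose by 0.85 ± 0.13 (adjusted p = 0.000458) and 0.97 ± 0.24 (adjusted p = 0.00754). The others that rose were Serpina3n, Serpinb1a and Pi15. Serpini2, a pancreatic serpin, measured 21.8 TPM in QYD, 18.7 in Model and 278 in Control on average and fell by 6.04, more than any of the 9 protease genes. Spink1, the trypsin inhibitor stored in zymogen granules, fell by 1.62 on the TMM scale, a fold change close to that of Ctrb1, and lay at 0.52 on library totals.

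Of 17 acinar transcription factors, 13 fell, where 21.3% of all genes fell and 21.3% rose, with a median of -0.78. Xbp1, a regulator of the secretory pathway, rose by 0.43 ± 0.13 (adjusted p = 0.0237). On library totals 2 fell and 14 rose, where 0.943% of all genes fell and 94% rose. The median on library totals was 1.35, against 2.19 over all genes. Bhlha15 (MIST1) had -3.41 and Rbpjl, a subunit of the PTF1 complex, -2.78, while Foxa3 had -2.04 and Gata4 -1.44, each positive on library totals. Of 11 secretory granule genes 9 fell and 0 rose (median -1.24), whereas on library totals 2 fell and 7 rose, beside the same all-gene shares. Sycn, syncollin, had -2.91, Zg16 -3.32, Rab27b -2.61 and the granule membrane gene Gp2 -2.08. On library totals Gp2 lay at 0.06 and the call for Rab27b was lost (-0.47, adjusted p = 0.122). In QYD versus Model none of these lists had a gene that passed in edgeR.

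Among genes named like the 9 but used by other cells, Cpe averaged 46.2 TPM in QYD, 54.5 in Model and 8.72 in Control, above Ctrc and Cela3a in the injected groups. Elane, neutrophil elastase, averaged 0.0233 TPM in QYD, 0.0967 in Model and 0.0433 in Control, and Ctsg, cathepsin G, 0.0433 in QYD, 0.0433 in Model and 0.0200 in Control; both were below the filter. Cpa3, the mast cell carboxypeptidase, averaged 0.673 TPM in QYD, 0.527 in Model and 0.397 in Control and did not pass in Model versus Control, except without Model 57 (-2.92). Of 11 tested genes in that list, 2 fell, Cpn1 by 2.92 and Cpq by 1.495, and 2 rose, Cpd by 0.49 and Cpe by 0.42, calls that were lost without Control 43 (0.33 for Cpd and 0.34 for Cpe) and without Model 56 (0.51 for Cpd and 0.29 for Cpe), among other settings. Over all genes 21.3% fell and 21.3% rose on the TMM scale. On library totals 1 of the 11 fell and 8 rose, where 0.943% of all genes fell and 94% rose, and Cpq lay at 0.66.

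Among 4871 other genes with a mean of at least 10 CPM, the profile over the 9 libraries that was most like the average of the 9 protease genes was that of Sycn, with a root mean square difference of 0.104 (log2 CPM, TMM scale). Pnliprp2 at 0.145, Aqp12 at 0.160, Pdia2 at 0.164, Lcmt1 at 0.165, Pla2g1b at 0.186, Hsd17b13 at 0.187 and Gstm1 at 0.192 followed. Measured against the same average, Cpa1 was closest among the protease genes at 0.132 and Ctrb1 farthest at 0.656, with Cpb1 next at 0.363.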

How the data were processed

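Whole pancreas messenger RNA of 9 mice was sequenced. Build GRCm38.p6 and the tools RSEM 1.2.12, HISAT2 2.0.4 and Bowtie2 2.2.5 are listed in the submitters' processing notes, with no roles. Strandedness was not stated. Per the file headers, the authors deposited read counts, treated here as estimated counts because some values were not whole numbers, TPM and FPKM for each gene and library; 18 mean columns were not used. FPKM, deposited by the authors, served only to check shares. TPM was deposited by the authors and is scaled by length.

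Rounded counts entered edgeR 4.0.16 (R 4.3.3). Its default filter removed 4304 genes. A quasi-likelihood model on all 9 libraries had group as its only term (6 residual degrees of freedom, common biological coefficient of variation 0.175), with TMM, library total or protease average scaling, Benjamini-Hochberg adjustment and a threshold of 0.05. The test was checked on simulated counts. Alternatives used DESeq2 1.42.0, limma 3.58.1, other filters and scalings, Cela3a summed with Cela3b, only the compared groups, and each library left out.

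The protease genes, the 6 other gene lists and the 14 marker lists were chosen with earlier results of these data known. Named from each list were up to 4 genes of smallest p in Model versus Control, among those averaging 1 CPM or more, plus the 8 genes most alike in profile and Elane, Ctsg and Cpa3; 1810009J06Rik, Xbp1, Serpina3n, Serpinb1a and Pi15 were named after their values were seen. A gene that the rule picked is not reported here. Gene IDs of 17031 of the 17132 genes matched RefSeq. GENCODE transcripts of GRCm38 gave the 50-base stretches. Replicate libraries differed by more than sampling noise in every pair (chi-square per degree of freedom of 16.3 to 55.4).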

Additional observations from a re-analysis of the deposited data

How the results depend on the processing

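The number of protease genes called on the TMM scale was 9, 9 and 0 in Model versus Control, QYD versus Control and QYD versus Model under every alternative that leaves out a library, and the number off their own average was 7 in Model versus Control and 6 to 7 in QYD versus Control. Without 1 library the share of summed TPM was 24.2% to 25.0% in QYD, 27.1% to 28.1% in Model and 29.5% to 32.4% in Control; as a share of read counts it was 19.1% in QYD, 21.2% in Model and 26.6% in Control. Signs turned on library totals, in limma on log2(TPM + 1) and in limma on log2(TPM + 0.1), in that order, for Ctrb1 in Model versus Control (0.58, 0.64, 0.64), Ctrb1 in QYD versus Control (0.40, 0.43, 0.43), and, in Model versus Control, Klk1 (0.064, 0.12, 0.12), Spink1 (0.52, 0.58, 0.58), Foxa3 (0.12, 0.14, 0.20), Gata4 (0.69, 0.70, 0.81), Gp2 (0.058, 0.12, 0.12) and Cpq (0.66, 0.51, 0.69); these settings do not remove the difference in composition. With the sum of the protease counts as scale Cela1 lay at -0.083 in QYD versus Control and -0.063 in Model versus Control, and the cause was not tested. Over all genes 5464 passed in Model versus Control and 5222 in QYD versus Control, against 12185 and 12155 on library totals, 10238 and 10212 in limma on log2(TPM + 1), and 10228 and 10202 on log2(TPM + 0.1). Cpd and Cpe each lost their call in 6 settings. In QYD versus Model, 21 of 178 recomputed protease values changed sign and 0 passed. With 3 mice a group and a single tissue sample each, most changes of 1.5-fold went uncalled in the simulated counts. No paired analysis was possible because the numbers in the sample titles are animal numbers that the groups do not share.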
